A study of Mus musculus with 6 samples.

Results

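The 10 genes Adgre1, Csf1r, Msr1, Ms4a7, Cd68, Laptm5, Mpeg1, Lyz2, Aif1 and Coro1a mark macrophages in general, whatever their tissue or state of activation. They were followed by symbol, through their Ensembl identifiers, in a table of 35122 genes measured in the adipocyte fraction of mouse epididymal fat. All 10 had enough counts to be among the 13925 genes tested. The fraction came from 3 control mice (PU.1 fl/fl) and 3 aPU.1KO mice (AdipoqCre_PU.1 fl/fl), with 1 RNA library per mouse. PU.1, encoded by Spi1, is a transcription factor of the myeloid lineage, and the comparison asked how adipocyte RNA differs when Spi1 is targeted in adipocytes. All 6 mice were C57BL/6 males on a standard chow diet, and all carried both Spi1 alleles with an exon between loxP sites. The aPU.1KO mice carried in addition a Cre recombinase under the adiponectin promoter, which is active in fat cells and not in macrophages. By the labels the mice were 10 to 11 months old, while the study's text describes them as older. The mice of a group are numbered 1 to 3 in the order of their labels.

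Macrophages are phagocytes that reside in every tissue, and in fat they lie between the adipocytes and surround dying ones. They live on signals through the CSF-1 receptor, engulf debris through scavenger receptors, degrade it in lysosomes and move and swallow by rebuilding the actin cytoskeleton, and the 10 genes cover each of these tasks. PU.1 is abundant in macrophages and binds DNA at sites with a GGAA core, many of them close to genes of this lineage. The adipocyte fraction is the layer that floats after collagenase digestion, and other cells of the fat pad can be carried over with it.

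Start sites of 7 of the 10 genes had a window in the RefSeq promoter table (build GRCm38.p6, 250 bases before to 50 after the start site), and Adgre1, Csf1r and Msr1 had none. Coro1a and Ms4a7 had 2 windows each, which makes 9 windows in all. All 7 genes held the core GGAA on either strand, as did 96.5% of the 27025 genes with a window, so the core alone does not set them apart. The longer word GGAAGT was found on either strand in 4 of the 7, against 26.5% of all genes. The 4 windows that hold it are printed here 5′ to 3′ on the strand of the gene, so that the promoters of 4 of the genes compared below can be read, with GGAAGT or its reverse complement ACTTCC in capitals.
Cd68 (chr11:69666121-69666420, minus strand): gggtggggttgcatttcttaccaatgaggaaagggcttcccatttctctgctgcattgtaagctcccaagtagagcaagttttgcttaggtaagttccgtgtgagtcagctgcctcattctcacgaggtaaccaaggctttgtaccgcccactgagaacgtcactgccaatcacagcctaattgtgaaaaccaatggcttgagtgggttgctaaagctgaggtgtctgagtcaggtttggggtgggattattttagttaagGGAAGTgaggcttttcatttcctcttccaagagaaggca
Laptm5 (chr4:130913066-130913365, plus strand): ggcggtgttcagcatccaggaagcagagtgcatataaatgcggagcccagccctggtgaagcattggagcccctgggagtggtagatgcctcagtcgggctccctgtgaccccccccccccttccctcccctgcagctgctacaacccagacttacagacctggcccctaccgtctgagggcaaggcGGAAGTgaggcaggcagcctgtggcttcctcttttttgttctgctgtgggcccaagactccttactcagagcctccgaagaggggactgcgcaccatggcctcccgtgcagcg
Lyz2 (chr10:117282223-117282522, minus strand): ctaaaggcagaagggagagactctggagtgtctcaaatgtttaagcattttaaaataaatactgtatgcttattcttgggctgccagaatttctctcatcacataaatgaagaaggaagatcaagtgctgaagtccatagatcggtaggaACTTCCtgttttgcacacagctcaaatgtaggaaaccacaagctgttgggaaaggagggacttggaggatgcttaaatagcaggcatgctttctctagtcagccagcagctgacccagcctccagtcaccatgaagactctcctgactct
Ms4a7 (chr19:11336097-11336396, minus strand): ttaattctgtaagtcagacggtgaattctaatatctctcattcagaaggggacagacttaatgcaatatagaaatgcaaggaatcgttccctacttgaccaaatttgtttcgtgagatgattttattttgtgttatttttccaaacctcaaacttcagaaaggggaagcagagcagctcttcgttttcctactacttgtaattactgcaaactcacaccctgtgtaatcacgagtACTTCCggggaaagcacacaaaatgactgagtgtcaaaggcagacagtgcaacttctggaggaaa
Counted from the start site at 0, the first capital lies at 11 in Cd68, at -63 in Laptm5, at -100 in Lyz2 and at -15 in Ms4a7. With a preceding A (AGGAAGT, which contains GGAAGT) the word was found in Lyz2 alone of the 7, against 10.7% of all genes, and GAGGAAGT in 0 of the 7, against 3.69%. GAGGAA, which shares its last bases with the start of GGAAGT, was found in Aif1, Cd68, Laptm5 and Ms4a7, against 31.3% of all genes. These are matches of letters, and no binding was measured in these libraries.

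Library totals were between 20550252 and 24310144 counts in 5 libraries and 69283842 in that of control mouse 1. Levels are given as CPM, counts taken relative to the library's size after TMM scaling, which removes differences in depth. Spi1 itself, counted over the whole gene and so including exons that Cre does not remove, was at 24.3, 6.35 and 26.7 CPM in control mice 1 to 3 and at 3.20, 1.22 and 4.17 CPM in the aPU.1KO mice. Its log2 fold change (aPU.1KO over control) was -2.75, with a standard error of 0.64. The quasi-likelihood test of edgeR, adjusted after Benjamini and Hochberg over all genes tested, gave it an adjusted p of 0.0788. Control mouse 2 stood apart from the other controls: it had the lowest control level for Spi1 and for each of the 10 macrophage genes. Results for the 10 genes are therefore given with and without it, and so are the medians of several gene lists.

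All 10 macrophage genes were lower on average in aPU.1KO than in control libraries, by a fitted 2.86-fold (Aif1) to 7.25-fold (Mpeg1) in edgeR. Their summed level was 1511, 359 and 1476 CPM in control mice 1 to 3, and 268, 133 and 243 CPM in aPU.1KO mice 1 to 3. Every aPU.1KO library thus lay under every control library, but control mouse 2 was closer to the aPU.1KO mice than to the other controls. Measured on the raw counts, the 10 genes took 0.158%, 0.036% and 0.159% of the control libraries and 0.0257%, 0.0121% and 0.0245% of the aPU.1KO libraries. In RNA from a whole fraction, fewer macrophages and less of these RNAs per macrophage cannot be told apart.

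**Figure D1:**
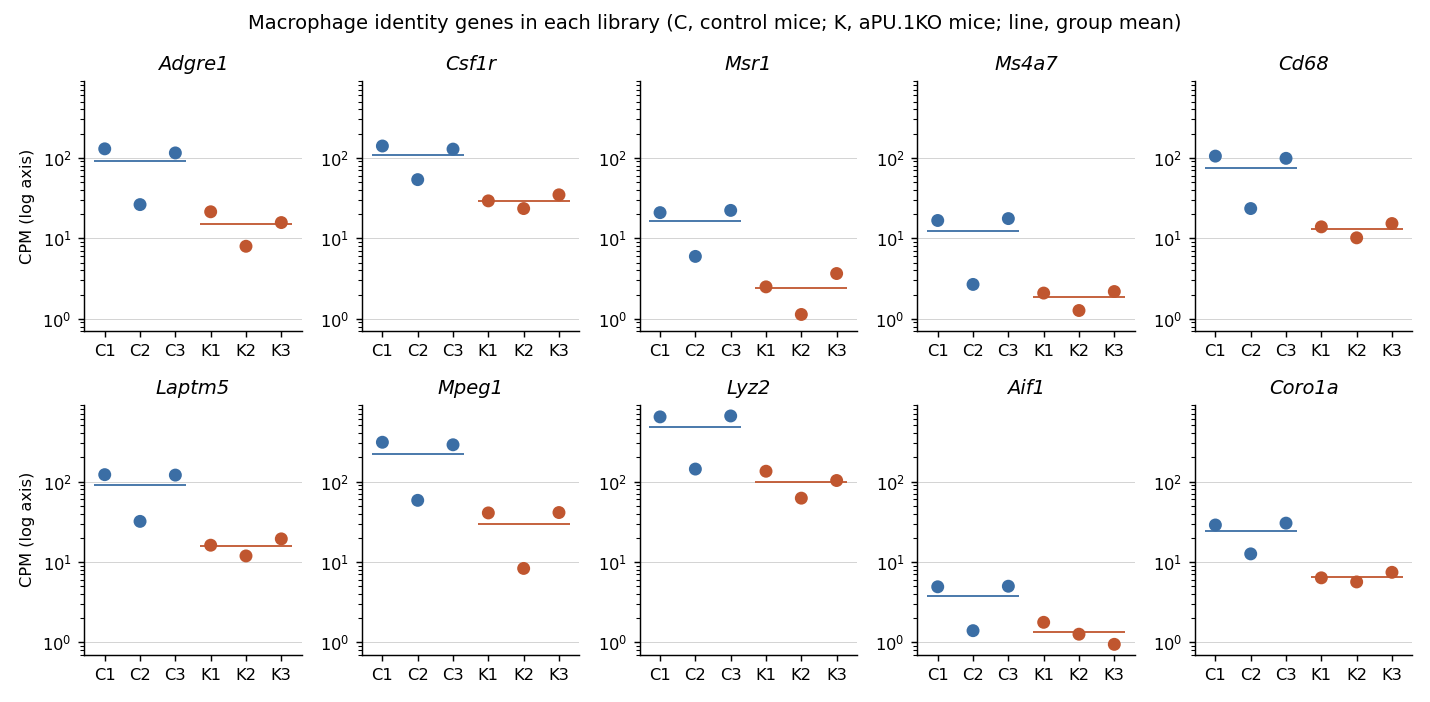
Level of each macrophage identity gene in each library, in CPM on a log axis shared by all panels. Each point is 1 mouse (C1 to C3, control; K1 to K3, aPU.1KO) and each line a group mean. In every panel C2 is the lowest control, and for Aif1 alone an aPU.1KO mouse (K1, 1.78 CPM) lies above it (1.40 CPM).

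Of the 10 genes, 0 reached an adjusted p under 0.05 in edgeR's quasi-likelihood test, in a comparison where 0.18% of all genes tested were called as lower and 0.237% in either direction. Their adjusted p values ran from 0.0724 to 0.133, and 9 of the 10 were lower at an adjusted p under 0.1, against 6.15% of all genes tested. Unadjusted, all 10 were lower at a p under 0.05, against 13.7% of all genes tested. In 9 of the 10 the groups did not overlap, with every aPU.1KO library lower, against 15.5% of all genes tested. DESeq2, the package named in the study's methods, run here with its Wald test, called all 10 as lower at an adjusted p under 0.05, with values from 2.43e-06 to 0.042, against 7.48% of the genes to which it gave an adjusted p (11.0% in either direction). limma-voom called 0 of the 10, against 0.244% of all genes tested as lower, with 9 lower at an unadjusted p under 0.05 (14.5% of all genes tested), Ms4a7 being the exception. The median log2 fold change of the 10 was -2.53, and that of all genes tested was 0.01. All 10 lay under a log2 fold change of -1, as did 7.95% of all genes tested. With no filter on low counts edgeR called 1 of the 10, Coro1a, against 0.581% of the genes tested in that fit. An exact permutation test of 3 mice against 3 cannot go below a two-sided p of 0.1, so single genes were tested in the fit across all genes only. The 10 genes and the gene lists below were chosen with earlier results of these data known. The shares of all genes are therefore a scale for reading the counts and no test of a set.

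Control mouse 2 was singled out by its low levels of these same genes, so that leaving it out widens their differences by construction, and the fit without it is a description and no independent support. Without control mouse 2, edgeR called all 10 genes as lower at an adjusted p under 0.05, against 6.93% of the genes tested in that fit. The 10 log2 fold changes then ran from -3.31 (Mpeg1) to -1.91 (Aif1), and their standard errors shrank to between 0.15 (Coro1a) and 0.62 (Mpeg1). Without control mouse 1, whose levels were close to those of control mouse 3, edgeR called 0 of the 10, as it called 0.0% of the 14020 genes tested in that fit, so the count says nothing particular of these genes. Their adjusted p values ran from 0.313 to 0.434, and their log2 fold changes ran from -2.56 (Msr1) to -1.29 (Aif1). The direction was the same for every gene in both fits.

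**Figure D2:**
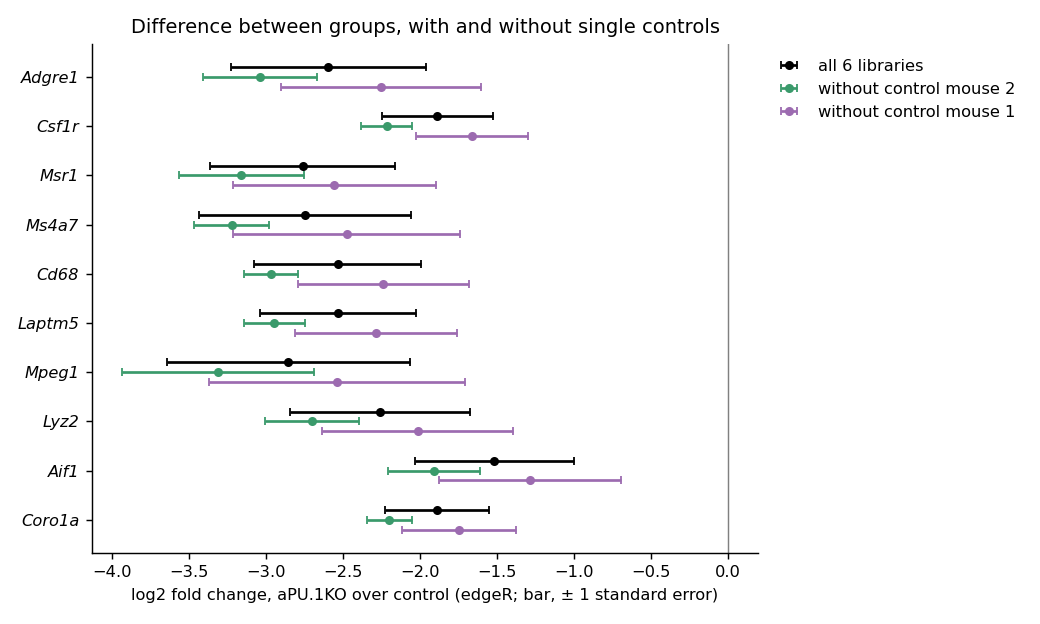
Log2 fold change of each macrophage identity gene (aPU.1KO over control) with all 6 libraries and without control mouse 2 or control mouse 1, with bars of 1 standard error from edgeR. Without control mouse 2, which was singled out for its low levels of these genes, the points move left and the bars shorten, as for Cd68 from -2.54 with a standard error of 0.54 to -2.97 with 0.18.

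Of the 4 surface proteins, Adgre1 (ENSMUSG00000004730; chr17:57358691-57483527, plus strand, GRCm38) encodes F4/80, the adhesion receptor by which mouse macrophages are usually stained. It was at 129, 26.2 and 115 CPM in the control mice and at 21.4, 7.96 and 15.7 CPM in the aPU.1KO mice. The groups did not overlap, though aPU.1KO mouse 1 reached 81.4% of the level of control mouse 2. The log2 fold change was -2.60 with a standard error of 0.63 (adjusted p = 0.085 from edgeR, 0.0086 from DESeq2), from a mean of 90.2 ± 55.9 CPM in controls to 15.0 ± 6.72 CPM in aPU.1KO mice (SD, n = 3 each).

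Csf1r (ENSMUSG00000024621; chr18:61100598-61132149, plus strand) encodes the receptor for CSF-1 and interleukin-34, on which most tissue macrophages depend for survival. Its level was 140.2, 53.6 and 128 CPM in control mice 1 to 3 and 29.2, 23.4 and 34.7 CPM in aPU.1KO mice 1 to 3. It was among the genes in which control mouse 2 was least far from the other controls, at 39.9% of their mean, and the highest aPU.1KO library was at 64.7% of it. The log2 fold change was -1.89 with a standard error of 0.36 (adjusted p = 0.0749 from edgeR, 5.79e-06 from DESeq2). Its exons share 873 bases with those of Hmgxb3 on the opposite strand, and the sources used here do not say whether the libraries kept strand, so part of its count may belong to Hmgxb3. The RNAs of its ligands differed less: Csf1 was at 43.4, 44.2 and 34.6 CPM in controls and 39.9, 27.4 and 46.5 CPM in aPU.1KO mice (log2 fold change -0.10, standard error 0.20). Il34 was at 18.8, 16.1 and 22.4 CPM in controls and 15.2, 16.8 and 15.4 CPM in aPU.1KO mice (-0.27, standard error 0.14). Both ligands overlapped between the groups, and neither was lower at an unadjusted p under 0.05.

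Msr1 (ENSMUSG00000025044; chr8:39581685-39642673, minus strand) encodes the class A scavenger receptor that takes up modified lipoproteins. It was at 20.8, 5.95 and 22.2 CPM in controls and at 2.49, 1.13 and 3.65 CPM in aPU.1KO mice. No library overlapped, and aPU.1KO mouse 3 was 3.23-fold above aPU.1KO mouse 2, on raw counts of only 77 and 25. The log2 fold change was -2.76 with a standard error of 0.60 (adjusted p = 0.0783 from edgeR, 3.42e-05 from DESeq2). Ms4a7 (ENSMUSG00000024672; chr19:11321039-11336146, minus strand), which encodes a membrane-spanning protein of the MS4A family, was at 16.6, 2.67 and 17.6 CPM in controls and at 2.08, 1.27 and 2.18 CPM in aPU.1KO mice. Control mouse 2 was at 15.6% of the mean of the other controls, the lowest such share of the 10 genes, and only slightly above the aPU.1KO mice. The log2 fold change was -2.75 with a standard error of 0.69 (adjusted p = 0.0868 from edgeR, 0.000259 from DESeq2), and without control mouse 2 it was -3.22 with a standard error of 0.24.

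The 4 genes of the lysosome and of killing included the most abundant of the set. Cd68 (ENSMUSG00000018774; chr11:69664213-69666153, minus strand), a heavily glycosylated protein of the lysosomal membrane, was at 105, 23.4 and 98.5 CPM in controls and at 13.9, 10.1 and 15.3 CPM in aPU.1KO mice. Its 3 aPU.1KO libraries lay within 1.51-fold of each other, and the highest was at 65.1% of the lowest control. The log2 fold change was -2.54 with a standard error of 0.54 (adjusted p = 0.0782 from edgeR, 0.00197 from DESeq2). Laptm5 (ENSMUSG00000028581; chr4:130913125-130936141, plus strand), a lysosomal membrane protein of blood cells that helps to degrade immune receptors, was at 122, 32.0 and 120.2 CPM in controls and at 16.2, 11.9 and 19.4 CPM in aPU.1KO mice. It repeated the order of Cd68 within the aPU.1KO group, with mouse 3 highest and mouse 2 lowest, and its log2 fold change was -2.53 with a standard error of 0.51 (adjusted p = 0.0764 from edgeR, 2.43e-06 from DESeq2).

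Mpeg1 (ENSMUSG00000046805; chr19:12460779-12465283, plus strand) encodes perforin-2, which makes pores in engulfed bacteria. It was at 307, 58.4 and 286 CPM in controls and at 40.7, 8.32 and 41.2 CPM in aPU.1KO mice. Here aPU.1KO mouse 2 lay far under the other 2 aPU.1KO mice, which were 4.95-fold above it at most, the widest such range of the 10 genes. Mpeg1 had both the largest difference, a log2 fold change of -2.86, and the largest standard error, 0.79 (adjusted p = 0.0987 from edgeR, 0.022 from DESeq2). Lyz2 (ENSMUSG00000069516; chr10:117277331-117282321, minus strand), which encodes the lysozyme of macrophages and granulocytes, was at 636, 143 and 653 CPM in controls and at 134, 62.1 and 103 CPM in aPU.1KO mice. The groups nearly met, with aPU.1KO mouse 1 at 94.0% of control mouse 2, and the log2 fold change was -2.26 with a standard error of 0.58 (adjusted p = 0.0902 from edgeR, 0.0161 from DESeq2). Lyz2 shares 95.8% identity over 96.0% of its transcript with Lyz1, the lysozyme of intestinal Paneth cells, so the split of reads between them is uncertain. Lyz1 was counted at 8.91, 5.43 and 6.50 CPM in controls and at 2.80, 5.02 and 5.73 CPM in aPU.1KO mice, a small part of the level of Lyz2 in each library.

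Of the 2 proteins that bind actin, Aif1 (ENSMUSG00000024397; chr17:35170991-35176068, minus strand) encodes Iba1, which bundles actin in moving macrophages. It was at 4.92, 1.40 and 4.997 CPM in controls and at 1.78, 1.27 and 0.95 CPM in aPU.1KO mice, on raw counts of 20 to 35 in the latter. This was the only one of the 10 genes whose groups overlapped, because control mouse 2 lay below aPU.1KO mouse 1, and the only one in which aPU.1KO mouse 3 was the lowest. The log2 fold change was -1.52 with a standard error of 0.52 (adjusted p = 0.133 from edgeR, 0.042 from DESeq2). Coro1a (ENSMUSG00000030707; chr7:126699773-126707787, minus strand) encodes coronin-1A, a regulator of actin in leukocytes in general. It was at 28.8, 12.6 and 30.4 CPM in controls and at 6.35, 5.65 and 7.44 CPM in aPU.1KO mice. The aPU.1KO libraries lay within 1.32-fold of each other, the highest was at 59.0% of the lowest control, and the log2 fold change of -1.89 had the smallest standard error of the set, 0.34 (adjusted p = 0.0724 from edgeR, 4.38e-06 from DESeq2). Its exons share 26 bases with Bola2 on the opposite strand.

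Within each group most of the 10 genes were lowest in the same mouse. The order of control mice 1 and 3 varied between genes, as for Adgre1 (129 and 115 CPM) and Lyz2 (636 and 653 CPM). Control mouse 2 was the lowest control for 10 of 10 genes, at 15.6% (Ms4a7) to 42.6% (Coro1a) of the mean of the other 2. Among the aPU.1KO mice, mouse 2 was the lowest for 9 of 10 genes and the highest for 0, and mouse 3 was the highest for 7 and mouse 1 for 3. The 10 genes are measured in the same libraries, so these orders are not independent of each other.

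Per kilobase of transcript, which allows levels of different genes to be compared, Lyz2 was first and Cd68 next in all 6 libraries. In the controls Lyz2 was at 363 ± 220 CPM per kilobase, Cd68 at 61.5 ± 36.9, Mpeg1 at 50.1 ± 31.9, Laptm5 at 35.1 ± 19.8, Adgre1 at 27.9 ± 17.3, Csf1r at 22.8 ± 9.99, Coro1a at 13.7 ± 5.63, Ms4a7 at 7.80 ± 5.3, Msr1 at 4.49 ± 2.48 and Aif1 at 4.31 ± 2.35 (mean ± SD, n = 3). Apart from Lyz2, each of these genes differed from the next in the order by less than the sum of their SDs. These SDs include the low level of control mouse 2 in every gene, so they do not measure how firm the order is. Within each control the order was the same, except that Adgre1 and Csf1r changed places in control mouse 2. In the aPU.1KO mice Lyz2 was at 75.8 ± 27.5 and Cd68 at 10.6 ± 2.16 CPM per kilobase, and Msr1, at 0.666 ± 0.347, took the last place from Aif1, at 1.52 ± 0.479. Mpeg1 held rank 3 in 5 of the libraries and rank 7 in aPU.1KO mouse 2.

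The genes did not differ by equal factors, and the make-up of their summed counts was not the same in every library. Lyz2 gave 39.8% to 44.2% of the counts of the 10 genes in controls and 42.3% to 50.0% in aPU.1KO mice, so its share overlapped. Mpeg1 gave 20.4%, 16.3% and 19.4% in controls and 15.2%, 6.25% and 16.9% in aPU.1KO mice 1 to 3, and the value of aPU.1KO mouse 2 had a 95% Wilson interval of 5.43% to 7.18%. Csf1r gave 9.28%, 14.9% and 8.69% in controls and 10.9%, 17.6% and 14.3% in aPU.1KO mice, an overlap due to control mouse 2. Csf1r shares were highest in control mouse 2 among controls and in aPU.1KO mouse 2 among aPU.1KO mice, the mice with the lowest summed level of their groups, and Coro1a too was highest in these mice (1.91%, 3.51% and 2.06%, then 2.37%, 4.24% and 3.06%). The intervals cover counting error only, and no test between groups was made on these shares.

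**Figure D3:**
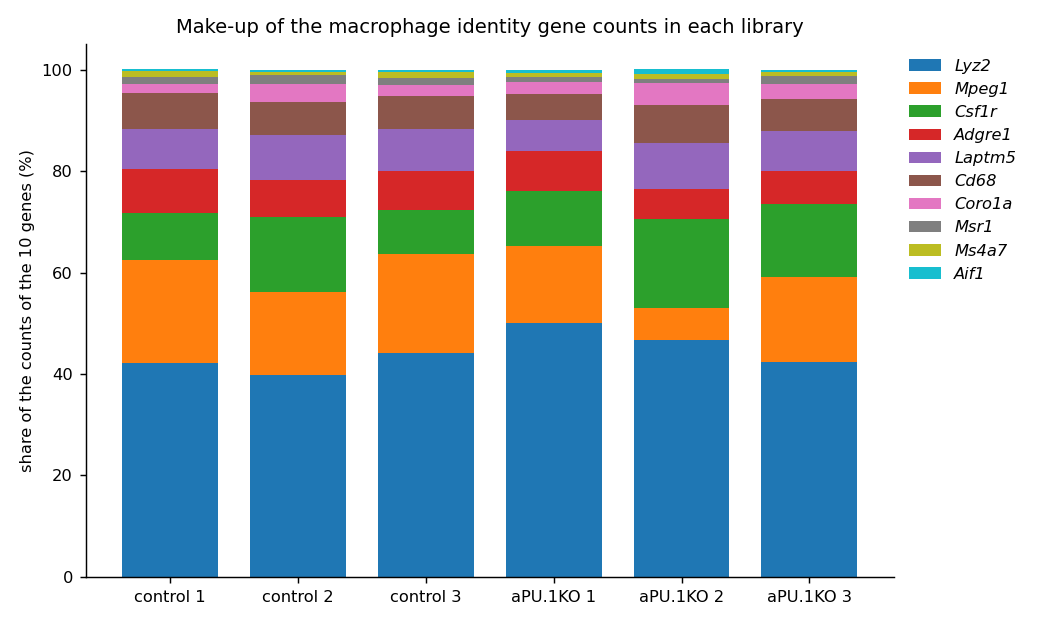
Share of each macrophage identity gene in the summed raw counts of the 10 genes, in percent, 1 bar per library. Lyz2 fills 39.8% to 50.0% of every bar, and the band of Mpeg1 is narrowest in aPU.1KO mouse 2, at 6.25%.

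To see how near each of the 10 genes lay to the common profile, in shape and in size of its differences, the log2 CPM of each gene was centred on its mean over the 6 libraries and set against the median profile of the 10. The median profile was 1.85, -0.21 and 1.79 in controls 1 to 3 and -0.89, -1.59 and -0.86 in aPU.1KO mice 1 to 3. Cd68 and Laptm5 lay nearest, with root mean square differences of 0.079 and 0.098 on the log2 scale, and Mpeg1 (0.61), Aif1 (0.59) and Coro1a (0.39) lay farthest. A gene of like shape but smaller differences also lies far by this measure. Coro1a, for example, was at 1.26, 0.07 and 1.34 in controls and at -0.91, -1.08 and -0.68 in aPU.1KO mice. Aif1 rests on raw counts of 20 to 35 in the aPU.1KO libraries. Among the other genes with a mean of at least 5 CPM, the nearest included Lcp1 (0.10; L-plastin, an actin-bundling protein of leukocytes), Cd300a (0.11; an inhibitory receptor), Blnk (0.11; an adaptor of B cells and macrophages) and Lilrb4a (0.12; an inhibitory receptor). Lcp1, as an example, was at 226, 56.3 and 201 CPM in controls and at 33.7, 17.8 and 35.8 CPM in aPU.1KO mice. Both the lower level in aPU.1KO mice and the place of control mouse 2 are fixed by the choice of genes of like profile, so neither is a further result.

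**Figure D4:**
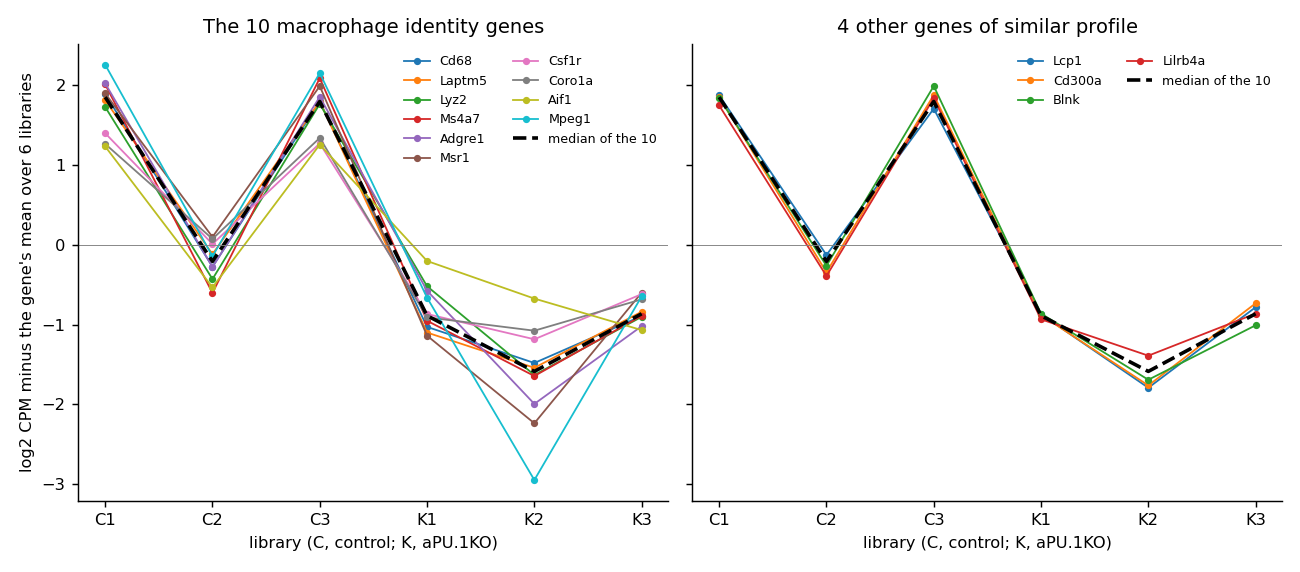
Centred log2 CPM over the 6 libraries of the 10 macrophage identity genes (left) and of 4 other genes close to their median profile (right), with the dashed line for that median. Lines join the libraries only to guide the eye. The profiles of the 10 genes spread most in aPU.1KO mouse 2, where Mpeg1 is at -2.95 and Aif1 at -0.67.

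Another 30 genes expressed by macrophages were listed, also with earlier results of these data known. Of these 30, 25 were lower and 0 higher by the unadjusted p (under 0.05), where 13.7% and 11.9% of all genes tested were. Their median log2 fold change was -2.09 (-2.49 without control mouse 2). In 22 the groups did not overlap, with the aPU.1KO libraries lower (15.5% of all genes tested), and DESeq2 called 25 as lower (7.48%). edgeR called 1 at an adjusted p under 0.05, the mannose receptor Mrc1, where 0.18% of all genes tested were called as lower. Mrc1 was at 95.5, 56.1 and 72.3 CPM in controls and at 23.0, 22.1 and 24.2 CPM in aPU.1KO mice, a difference of -1.70 on the log2 scale with a standard error of 0.19 (adjusted p = 0.0389 from edgeR). In Mrc1 control mouse 2 stood less far from the other controls than in any of the 10 general genes. The largest differences in this list were those of Clec7a (-3.28; the beta-glucan receptor dectin-1), Trem2 (-3.24; a lipid receptor of macrophages) and Ctss (-2.88; the protease cathepsin S), with adjusted p values from edgeR of 0.0786, 0.0942 and 0.0911. Genes of the list that were not lower at an unadjusted p under 0.05 included Mertk (0.06), Cd163 (0.29), Ctsb (-0.35) and Tlr2 (-0.47), of which Ctsb and Tlr2 were chosen after their values were seen. Mertk, a receptor for dying cells, was at 46.3, 59.5 and 39.5 CPM in controls and 43.3, 57.8 and 49.7 CPM in aPU.1KO mice. Cd163, the haemoglobin scavenger receptor, was at 11.1, 23.9 and 2.97 CPM in controls and 11.3, 19.0 and 15.8 CPM in aPU.1KO mice. In both of these genes control mouse 2 was the highest of the controls, the reverse of its place in the 10 general genes.

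Transcription factors of the macrophage lineage were mixed. Of 15, 9 were lower and 2 higher by the unadjusted p (under 0.05), where the shares of all genes tested were 13.7% and 11.9%. In edgeR 0 passed an adjusted p of 0.05, as did 0.237% of all genes tested. DESeq2 called 7 as lower and 1 as higher, against 7.48% as lower and 11.0% in either direction of all genes to which it gave an adjusted p. The median log2 fold change of the 15 was -0.56 (-0.66 without control mouse 2). Besides Spi1, the largest differences were those of Irf5 (-2.61; a driver of inflammatory cytokine genes) and Tfec (-2.52; a macrophage relative of MITF), with adjusted p values of 0.0786 and 0.0892 from edgeR. Irf5 was at 21.6, 5.56 and 20.7 CPM in controls and at 2.80, 1.27 and 3.84 CPM in aPU.1KO mice, again with mouse 2 the lowest of either group. The factors whose log2 fold change was above 0 were Nr1h3 (0.34; the oxysterol receptor LXR alpha), Cebpb (0.34), Id3 (0.53) and Bhlhe41 (0.67), with adjusted p values from edgeR of 0.0783, 0.376, 0.245 and 0.192. Nr1h3 was at 101, 105 and 104 CPM in controls and 133, 139 and 122 CPM in aPU.1KO mice, without overlap, and adipocytes express it too.

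Relatives of the 10 genes by family, many of them expressed outside macrophages, ranged from about as low as some of the 10 to slightly higher. Of 28 listed, 26 were tested, and by the unadjusted p (under 0.05) 13 were lower and 1 was higher (13.7% and 11.9% of all genes tested). Without overlap between the groups, 11 were lower and 1 was higher (15.5% and 16.7% of all genes tested). The median log2 fold change was -0.59 (-0.75 without control mouse 2). DESeq2 called 10 as lower and 1 as higher. Of all genes to which it gave an adjusted p, it called 7.48% as lower and 11.0% in either direction. At an adjusted p under 0.05 edgeR called 1, the growth factor receptor Pdgfrb (-0.95, adjusted p = 0.0491), where 0.18% of all genes tested were called as lower. Pdgfrb belongs to the receptor kinase family of Csf1r and marks pericytes and stromal cells. Among the 26 tested by edgeR, the 5 relatives with the lowest log2 fold changes, named after their values were seen, were Ms4a6c (-1.96), Adgre4 (-1.71), Ms4a4b (-1.68), Pdgfra (-1.55) and Ms4a4a (-1.42), beside -1.89 for Csf1r and -1.52 for Aif1. DESeq2 called all 5 except Ms4a4b. Ms4a4c and Flt3, not tested by edgeR, were at -2.56 and -1.53 in DESeq2 (adjusted p = 0.0506 and 0.203). Marco, a macrophage scavenger receptor akin to Msr1, was at -0.08 with a standard error of 0.51. Adgre4, of the family of Adgre1, was at 3.40, 2.01 and 3.29 CPM in controls and at 0.915, 0.949 and 0.805 CPM in aPU.1KO mice, without overlap (adjusted p = 0.0722 from edgeR, 0.000217 from DESeq2). The 4 relatives with the highest level were Lamp1, Laptm4a, Lamp2 and Coro1b. Lamp1 and Lamp2, lysosomal membrane proteins found in every cell and akin to Cd68, had log2 fold changes of -0.07 and 0.06 and standard errors of 0.14 and 0.09. Laptm4a, the broadly expressed relative of Laptm5, was at 444, 414 and 467 CPM in controls and 462, 440.0 and 461 CPM in aPU.1KO mice, and its log2 fold change was 0.04 with a standard error of 0.09. Coro1b, the coronin of other cell types, was higher in every aPU.1KO library than in any control, as were 16.7% of all genes tested, at 155, 141 and 163 CPM in controls against 182, 212 and 192 CPM (log2 fold change 0.35, adjusted p = 0.0954 from edgeR, 0.0281 from DESeq2). Coro1c and Adgre5, named after their values were seen, were lower in every aPU.1KO library than in any control. Coro1c was at 112, 83.9 and 108 CPM in controls and 67.4, 64.0 and 70.7 CPM in aPU.1KO mice. Their log2 fold changes were -0.59 and -0.42 (adjusted p = 0.0764 and 0.0786 from edgeR, 0.0013 and 0.006 from DESeq2). The difference between a general gene and its relative was not itself tested.

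**Figure D5:**
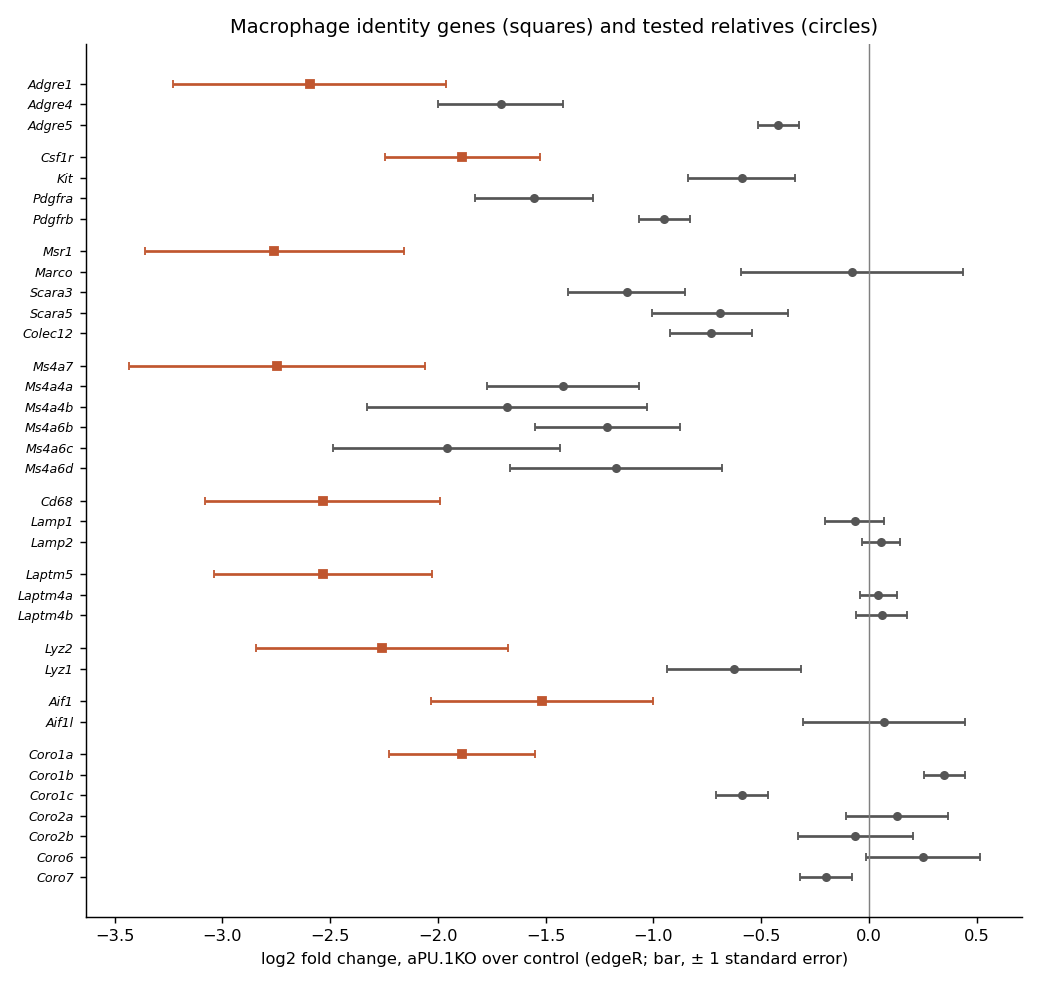
Log2 fold change (aPU.1KO over control) of the macrophage identity genes (squares) and of the tested members of their families (circles), with bars of 1 standard error from edgeR. The squares lie between -2.76 and -1.52 and the most abundant relatives (Lamp1, Lamp2, Laptm4a and Coro1b) between -0.07 and 0.35. Mpeg1 has no relative in the list and is not drawn.

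The summed levels of adipocyte markers and of progenitor and fibroblast markers did not overlap between the groups, those of endothelial markers did, and the part of these cells in the levels of the 10 genes was not tested. The fraction had the markers of mature adipocytes: 10 of them summed to between 26800 and 29200 CPM in controls and between 32400 and 39000 CPM in aPU.1KO mice, and Fabp4, the fatty acid carrier of fat cells, was the highest, at 9109 to 11380 CPM in controls and 12290 to 14440 CPM in aPU.1KO mice. Of these 10, the unadjusted p was under 0.05 for 8 that were higher and 1 that was lower (Lep, named after its values were seen), against 11.9% and 13.7% of all genes tested, and edgeR called 0 at an adjusted p under 0.05. DESeq2 called 7, all higher. Of all genes to which it gave an adjusted p, it called 11.0% in either direction and 7.48% as lower. The 10 markers of adipose progenitors and fibroblasts summed to 1480 to 1990 CPM in controls and to 777 to 1100 CPM in aPU.1KO mice, with 7 lower at an unadjusted p under 0.05 (13.7% of all genes tested), 0 called by edgeR at an adjusted p under 0.05 (DESeq2 7, against 7.48%) and a median log2 fold change of -0.95 (-1.05 without control mouse 2). Col3a1, a fibrillar collagen and the highest of them, was at 690, 468 and 600 CPM in controls and 297, 406 and 277 CPM in aPU.1KO mice. Endothelial markers summed to 691 to 1060 CPM in controls and 424 to 890 CPM in aPU.1KO mice, so that the sums overlapped, with 1 of 10 lower at an unadjusted p under 0.05 (13.7% of all genes tested were), that being Cdh5, the cadherin of vessel walls, and 0 called by edgeR or DESeq2.

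Markers of other leukocytes and of mesothelium were at low levels. The 10 T cell markers summed to 4.68 to 11.0 CPM in controls and 2.85 to 4.17 CPM in aPU.1KO mice, the 8 B cell markers to 3.68 to 4.10 and 1.94 to 4.97 CPM, and the 7 NK cell markers to 0.394 to 1.80 and 0.661 to 0.768 CPM. Themis led the T cell list, Cd79a the B cell list and Gzma the NK cell list, each at under 3 CPM in every library. Neutrophil markers summed to 18.3 to 37.1 CPM in controls and 12.6 to 18.1 CPM in aPU.1KO mice, most of it S100a8, while Ly6g, which defines these cells, was at 0 in 5 of the libraries and Retnlg at 0 in all 6. Mast cell markers, led by Mcpt4, summed to 2.54 to 12.0 CPM and 1.27 to 3.71 CPM, dendritic cell markers, led by Zbtb46, to 19.4 to 25.4 and 17.0 to 25.0 CPM, and mesothelial markers, led by Upk3b, to 4.84 to 18.5 and 6.81 to 8.59 CPM. Eosinophil markers summed to 0.657 to 3.21 CPM in controls and 0.254 to 0.474 CPM in aPU.1KO mice, with Epx at 0 in all 6 libraries and Ccr3 the highest. At an unadjusted p under 0.05, at which 13.7% of all genes tested were lower, 2 of 5 tested T cell markers, 3 of 3 mast cell markers, 1 of 3 neutrophil markers and 1 of 6 dendritic cell markers were lower, 1 neutrophil marker (Elane) was higher, and 0 of 3 B cell and 0 of 7 mesothelial markers passed. edgeR called 0 of these lists' genes at an adjusted p under 0.05. DESeq2 called 1 each of the mast cell, neutrophil, dendritic cell and eosinophil markers as lower, against 7.48% of all genes to which it gave an adjusted p. In lists this short, single calls are not read as a result about a cell type. The median log2 fold changes of the tested markers were -0.83 (T cell), -1.98 (mast cell), 0.29 (neutrophil), -0.69 (B cell), -0.51 (dendritic cell) and -0.54 (mesothelial), and the last 4 of these changed sign under other processing, the neutrophil one to -0.44 in DESeq2. Over the other settings the T cell median ran from -1.37 to -0.64 (-1.32 without control mouse 2) and the mast cell median from -2.67 to -1.27 (-2.39 without control mouse 2). Elane was named after its values were seen.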

How the data were processed

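RNA-seq libraries of the epididymal adipocyte fraction of 3 control and 3 aPU.1KO mice were analysed. The authors quantified the reads with Salmon (option validateMappings), summed transcripts to genes and deposited estimated counts, which are whole numbers and were used as they stand. The submitters' processing notes name Salmon, FastQC and GRCm38, and versions and annotation are not given in the sources used here. Symbols and coordinates are from GENCODE M21 (GRCm38), to which 35031 of 35122 genes matched, the others holding 0.0367% of the counts. Within a group, the counts of any pair of libraries differed by far more than sampling noise (chi-square over its degrees of freedom at least 20.4), so no library was a repeat of another.

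Groups were taken from the genotype labels. The main test was that of edgeR 4.0.16 under R 4.3.3 (genes kept by filterByExpr, TMM factors, glmQLFit with its defaults, glmQLFTest, Benjamini-Hochberg adjustment over all genes tested, common biological coefficient of variation 0.194). DESeq2 1.42.0 and limma-voom (limma 3.58.1) were alternatives, beside other scaling factors (RLE, upper quartile, library totals), filters and dispersion options, control library 1 thinned in depth, and each mouse left out. DESeq2 with each mouse left out was added after seeing the data. Per-kilobase levels used the longest protein-coding transcript, and log2 CPM a prior count of 2. Identity between transcripts was found with BLAST 2.17.0. The tests treat mice as replicates, controls were littermates in the study, and which mice shared a litter or a preparation day is not given in the sources used here.

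The members and all gene lists were chosen with earlier results of these data known. Named were all 10 genes and Spi1; from the lists of other macrophage genes and transcription factors the 3 with the largest absolute log2 fold change and any of the opposite direction; both CSF1R ligands; the 4 most abundant relatives and any higher without overlap; the most abundant marker of each cell type; and the 5 genes nearest in profile. A few genes that meet these rules are not reported here.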

Additional observations from a re-analysis of the deposited data

How the results depend on the processing

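Each of the 10 genes kept its lower level in aPU.1KO mice in all 220 values from other settings, and 64 of these were past an adjusted p of 0.05. The settings share the same libraries, so these values are not independent, and no share over all genes stands beside the 64. The median log2 fold change of the 10 stayed between -2.96 and -2.24. The number of the 10 called was 0 in edgeR, 1 with no filter on low counts (Coro1a) and 10 with DESeq2, against 0.18%, 0.581% and 7.48% of all genes called as lower in these fits. With single mice left out it ran from 0 to 10 in edgeR, the 10 without control mouse 2 and 0 without any other mouse. In DESeq2 it was 5 without control mouse 1 or 3, 10 without control mouse 2, 8 without aPU.1KO mouse 1 or 3 and 7 without aPU.1KO mouse 2. The share of all genes called as lower is not given for these DESeq2 fits, and the totals below are in either direction. Their counts of the 10 are therefore a description only. Over all genes tested and in either direction edgeR called 33, then 5 with at least 10 counts in every library and 146 with no filter, and DESeq2 called 1833. With single mice left out edgeR called 0 (without control mouse 1) to 1193 (without control mouse 2) and DESeq2 called 370, 2195 and 681 without control mice 1 to 3 and 1109, 1445 and 2186 without aPU.1KO mice 1 to 3. The count of 10 at an unadjusted p under 0.05 was 9 in limma-voom (without Ms4a7). It was also 9, with Aif1 lost, in edgeR without control mouse 1, control mouse 3, aPU.1KO mouse 2 or aPU.1KO mouse 3 and in DESeq2 without control mouse 1. The share of all genes at this unadjusted p is not given for the fits with a mouse left out. Of the cell type lists, the neutrophil median (0.29) turned to -1.02 with at least 10 counts in every library, -0.33 with no filter, -0.44 in DESeq2 and -0.02 in edgeR without control mouse 2. It was also below 0 in DESeq2 without control mouse 1 (-0.22), 2 (-0.03) or 3 (-0.09) or aPU.1KO mouse 2 (-0.85). The B cell median turned to 0.10, 0.0014 and 0.016 in DESeq2 without control mouse 2, aPU.1KO mouse 1 or aPU.1KO mouse 2. The dendritic cell median turned to 0.30 with at least 10 counts in every library, and the mesothelial one to 0.0222 (edgeR) and 0.0366 (DESeq2) without control mouse 2, with a range in edgeR of -0.95 to 0.0222 over the mice left out. The cause was not tested. No paired analysis was made because the sources used here do not say which control and aPU.1KO mice shared a litter. Counts were lowest for Aif1, Ms4a7 and Msr1, with 77 counts or fewer per aPU.1KO library.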
